A study of Drosophila melanogaster with 7 samples.

Results

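The genes described here are 34 that encode parts of the muscle sarcomere or of the muscle cell around it, read in RNA sequencing counts of dissected larval tracheae of Drosophila melanogaster. They were chosen by name, as known genes of muscle, to read how much muscle RNA each trachea preparation carried. Earlier results of these data were known when they were chosen. All 34 names were found among the 17697 named genes of the deposited tables. 3 libraries came from Hop.CA tracheae and 4 from control tracheae, all labelled as larvae of the third instar. Hop.CA is an activated form of hop, the fly Janus kinase, placed under a UAS promoter and switched on by btl-Gal4, which is active in tracheal cells. Hop.CA and control libraries carry 1 shared strain label: it names btl-Gal4 with UAS-GFP on one side, and UAS-Hop.CA with tub-Gal80ts on the other. The control titles speak of wild type, but no strain without the transgenes is named. Gal80ts blocks Gal4 at low temperature only. Hop.CA larvae were reared at 18 °C and moved, at the second larval stage, to 29 °C for the 18 hours that preceded sampling, whereas control larvae stayed at 18 °C. Transgene expression and temperature therefore cannot be told apart in any difference given here. The number of larvae behind a library is not given, and p-values measure the spread between libraries labelled as biological replicates. In bulk RNA, fewer muscle cells in a preparation and less muscle RNA per cell cannot be told apart.

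A sarcomere is the contractile unit of striated muscle. Thick filaments of myosin slide along thin filaments of actin, and calcium starts the movement by binding troponin C, which shifts troponin I, troponin T and tropomyosin on the thin filament. Thin filaments are anchored at the Z-disc, and giant elastic proteins link the Z-disc to the thick filaments. Larval body-wall muscles and the flight muscles of the adult use different members of the same families. The trachea is a tube of epithelial cells without sarcomeres of its own that runs along and into the body-wall muscles.

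Reads assigned to genes numbered 16795748 to 20455268 per library. Levels are CPM, the reads of a gene scaled to a common library size with TMM factors, and levels compared between genes are RPKM, which also divide exon reads by exon length. Fold changes are log2 values of Hop.CA over control with their standard error (SE). They were tested by quasi-likelihood in edgeR, and p-values were adjusted by Benjamini-Hochberg over all 9457 genes past a filter on low counts. A gene was called changed at an adjusted p under 0.05. hop stood at 1444, 1593 and 1342 CPM in Hop.CA replicates 1 to 3, against 38.4, 43.3, 40.1 and 44.03 CPM in control replicates 1 to 4, as the group labels state. Tracheal markers were present in every library: btl, trh, vvl, verm, serp, Gasp and pio summed to 15751 to 16568 CPM in Hop.CA libraries and 10711 to 11415 CPM in control libraries. verm and serp made up most of these sums, with verm alone at 8463 to 9060 CPM in Hop.CA and 5592 to 6226 CPM in control. serp and verm, chitin deacetylase genes of the tracheal lumen, rose with log2 fold changes of 0.74 ± 0.0782 and 0.58 ± 0.0747 (adjusted p 8.23e-04 and 0.00165). btl, the tracheal FGF receptor gene, fell with -0.63 ± 0.142 (0.0138, or 0.0512 without Hop.CA replicate 1). trh rose with 0.48 ± 0.146 (0.0387), a call lost without any 1 Hop.CA library or control replicate 3 or 4 (0.0558 to 0.108). vvl, Gasp and pio were not called (adjusted p 0.545, 0.0711 and 0.346).

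Of 31 sarcomere genes with enough reads for a test, 29 had a log2 fold change below 0 and 17 fell in Hop.CA tracheae. Of all tested genes 15.1% were called lower, and their median log2 fold change was -0.01. Replicates of the same group differed widely for the sarcomere genes. The 34 genes summed to 6627, 15445 and 8085 CPM in Hop.CA replicates 1 to 3, against 19186, 15223, 23405 and 28876 CPM in control replicates 1 to 4. Hop.CA replicate 2 held more than Hop.CA replicates 1 and 3, and slightly more than control replicate 2, so the groups overlapped. The means were 10052 ± 4727 CPM in Hop.CA and 21672 ± 5850 CPM in control (SD, n = 3 and n = 4), a ratio of 0.464. As a share of all gene reads, sarcomere genes took 0.673%, 1.49% and 0.817% in Hop.CA replicates 1 to 3 and 1.86%, 1.55%, 2.34% and 2.94% in control replicates 1 to 4. Act57B, Mlc2 and Mhc alone made up 30.3% to 41.7% of the summed CPM in Hop.CA libraries and 39.5% to 46.0% in control libraries. Without 8 members set aside as also used outside muscle (Tm1, Actn, Zasp52, Msp300, Argk, Strn-Mlck, tn and sls), the ratio was 0.400. This split did not follow the spread between libraries: tn, set aside, differed by 3.10 times within Hop.CA, but tmod and Mef2, kept, by 1.14 and 1.13 times. Without Hop.CA replicate 2, the ratio of the full sum was 0.340.

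**Figure D1:**
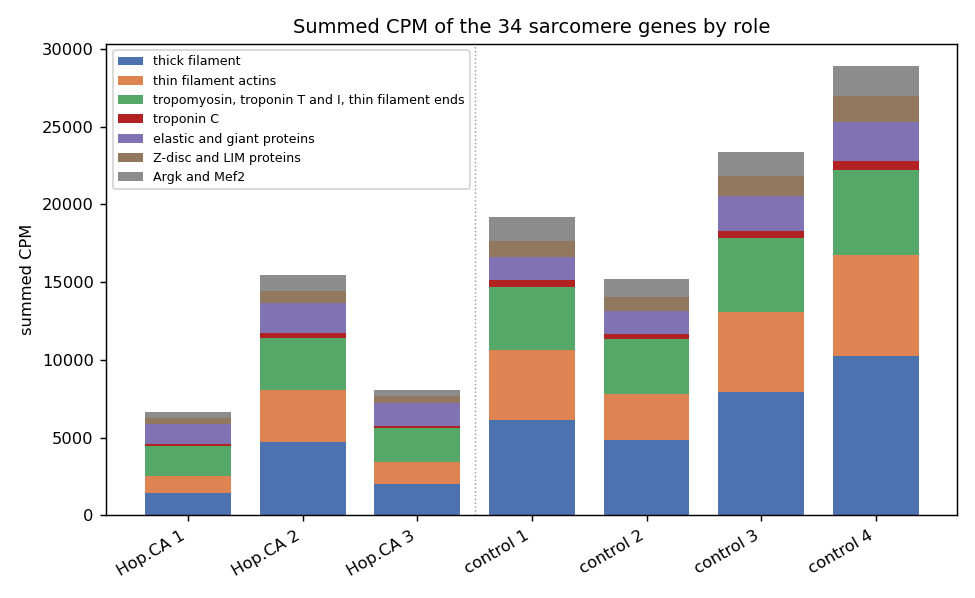
Summed CPM of the 34 sarcomere genes in each library (vertical axis), stacked by the role of the encoded protein, with the 3 Hop.CA libraries left of the 4 control libraries. Hop.CA replicate 2, at 15445 CPM, stands close to control replicate 2, at 15223 CPM, while Hop.CA replicates 1 and 3 are below every control library.

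31 of the 34 genes passed the filter on low counts. 17 of them were called lower and 1 higher in Hop.CA, against 15.1% of all tested genes called lower and 16.4% called higher. The median log2 fold change over these 31 was -1.21, against -0.01 over all tested genes. The Hop.CA and control libraries did not overlap for 16 members that were lower in Hop.CA, where 20% of all tested genes had such a gap, and for 1 that was higher, against 23.3%. Adjusted p-values of the called members ran from 0.0110 to 0.0496. Size and call did not go together: of 23 members with a log2 fold change of -1 or below, 14 were called. The number called lower depended on the libraries used, as did the share of all tested genes called lower. It was 3 without Hop.CA replicate 1 (8.68% of all tested genes), 25 without Hop.CA replicate 2 (11.4%) and 2 without Hop.CA replicate 3 (7.66%). It was 8 without control replicate 1 (17.7% of all tested genes), 15 without control replicate 2 (14.0%), 5 without control replicate 3 (11.1%) and 5 without control replicate 4 (12.5%). Without Hop.CA replicate 1 or 3, the members were thus called lower about as often as all tested genes. Act87E, sls and Strn-Mlck were the 3 called members that kept the call without any 1 library.

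The same libraries were high or low for nearly all members. Hop.CA replicate 2 was the highest of the 3 Hop.CA libraries for 30 of the 31 tested members, and Hop.CA replicate 1 the lowest for 29. Among controls, replicate 4 was the highest for 29 members and replicate 2 the lowest for 22. Hop.CA replicates 1 and 3 both lay below every control library for 26 members, while Hop.CA replicate 2 lay above control replicate 2 for 11. These rank counts were not taken over all tested genes, so the matching shares there are not known. The highest Hop.CA library exceeded the lowest by a median of 2.78 times over the tested members, against 1.16 times over all tested genes. Between the control libraries the median spread was 1.89 times for the members and 1.34 times for all tested genes.

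**Figure D2:**
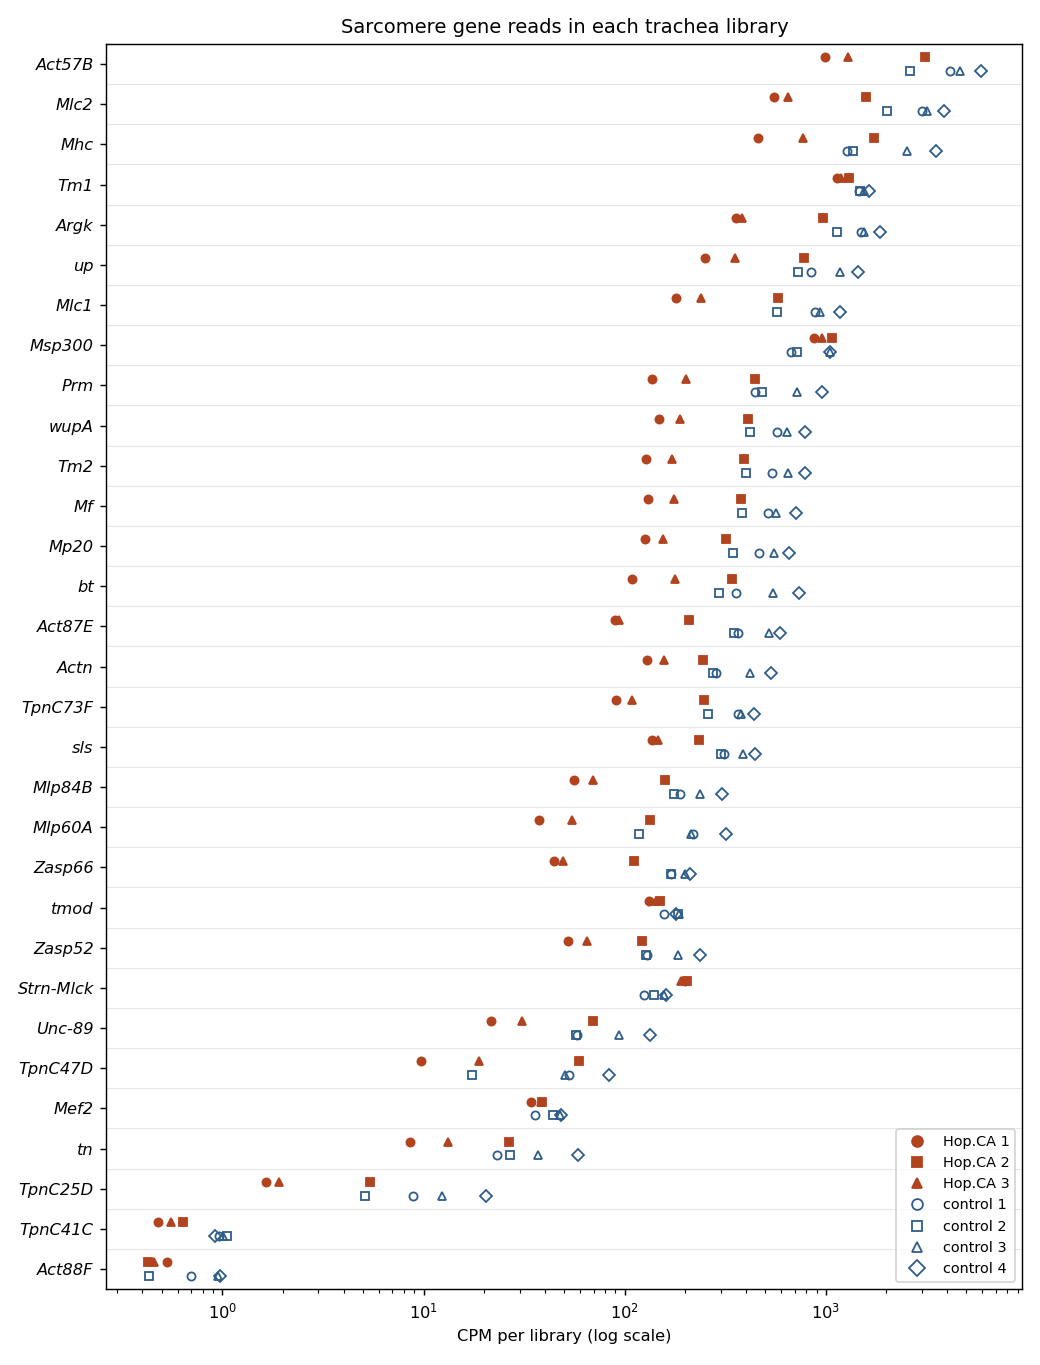
CPM of the 31 tested sarcomere genes (logarithmic axis) in each library, with Hop.CA libraries (filled) above control libraries (open) in each row and 1 marker shape per replicate number. Hop.CA replicate 2 (filled square) sits apart from Hop.CA replicates 1 and 3 in most rows, whereas Tm1, tmod, Mef2, Msp300 and Strn-Mlck show a narrow spread.

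Thick filament genes encode the motor and its scaffold. Of 6, 5 were tested and 3 called lower, against 15.1% of all tested genes. Mlc2, the regulatory light chain of muscle myosin, stood at 550.0, 1577 and 650.4 CPM in Hop.CA replicates 1 to 3, against 3003, 2023, 3176 and 3856 CPM in control replicates 1 to 4. All Hop.CA libraries lay below all control libraries, and Mlc2 fell (log2 fold change -1.70 ± 0.417, adjusted p = 0.0213). It lost the call without Hop.CA replicate 1 (adjusted p = 0.0577) and without Hop.CA replicate 3 (0.0768). Mlc1, the essential light chain, stood at 180, 576 and 240.1 CPM in Hop.CA and at 879, 570.2, 937 and 1175 CPM in control. Hop.CA replicate 2 lay just above control replicate 2, and the log2 fold change was -1.42 ± 0.443 (adjusted p = 0.0475).

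Mhc (2L, 16766566 to 16788766, dm6) is the single gene for muscle myosin heavy chain. It stood at 462, 1739 and 770.2 CPM in Hop.CA replicates 1 to 3, against 1277, 1371, 2526 and 3533 CPM in control replicates 1 to 4. Hop.CA replicate 2 exceeded control replicates 1 and 2, and Mhc did not pass the test (log2 fold change -1.14 ± 0.549, adjusted p = 0.156). Prm, which encodes paramyosin of the filament core, stood at 137, 447 and 201 CPM in Hop.CA and at 447, 479, 719 and 961 CPM in control. Its log2 fold change was -1.31 ± 0.463 (adjusted p = 0.0692), with Hop.CA replicate 2 level with control replicate 1. Mf, the gene of the thick filament protein myofilin, was called lower (log2 fold change -1.25 ± 0.393, adjusted p = 0.0496). fln encodes flightin, a protein of adult flight muscle, and had 0 to 2 reads per library. Without Hop.CA replicate 2, the log2 fold change of Mhc was -1.82 (adjusted p = 0.049965) and that of Prm -1.94 (0.0157). Mlc1 lost its call without Hop.CA replicate 1 or 3 or control replicate 1, 3 or 4, and Mf without any library but Hop.CA replicate 2, with adjusted p-values up to 0.149 for Mlc1 and 0.154 for Mf.

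Muscle actins form the thin filament, and larval and adult muscles use different actin genes. Act57B (2R, 20944021 to 20946431), a larval muscle actin, had the highest level per exon length of all members. It stood at 996, 3119 and 1286 CPM in Hop.CA replicates 1 to 3, against 4147, 2622, 4641 and 5895 CPM in control replicates 1 to 4. Hop.CA replicate 2 exceeded control replicate 2, and the log2 fold change of -1.27 ± 0.452 did not pass (adjusted p = 0.0715). Act87E, the second larval muscle actin, stood at 89.4, 209 and 93.9 CPM in Hop.CA and at 366, 350.4, 523 and 594 CPM in control. No Hop.CA library reached any control library, and Act87E fell with a log2 fold change of -1.81 ± 0.367 (adjusted p = 0.0110). It stayed called without any 1 library, with log2 fold changes from -2.32 to -1.60. Without Hop.CA replicate 2 the value for Act57B was -1.92 (adjusted p = 0.0105).

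The other muscle actins were near the detection limit. Act88F, the actin of the adult flight muscle, had 8 to 10 reads in Hop.CA libraries and 9 to 20 in control libraries. That was 0.529, 0.427 and 0.455 CPM in Hop.CA and 0.698, 0.432, 0.952 and 0.972 CPM in control, with no call (log2 fold change -0.69 ± 0.375, adjusted p = 0.198). Act79B, an actin of adult leg and jump muscles, had 2 to 12 reads in Hop.CA and 4 to 7 in control and was not tested. Neither of these adult actins exceeded 1 CPM in any library.

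Tropomyosin and the troponins form the calcium switch on the thin filament. Of 6 genes for tropomyosin, troponin T and I, and thin filament ends, all were tested and 5 called lower. Of all tested genes, 15.1% were called lower. Tm2, a muscle tropomyosin, stood at 127, 393 and 171 CPM in Hop.CA replicates 1 to 3, against 538, 402 and 647 CPM in control replicates 1 to 3 and 792 CPM in control replicate 4. The groups did not overlap, although Hop.CA replicate 2 and control replicate 2 nearly met, and Tm2 fell (log2 fold change -1.37 ± 0.426, adjusted p = 0.0476). wupA, the gene of troponin I, stood at 148, 410.3 and 188 CPM in Hop.CA and at 573, 419, 641 and 789.8 CPM in control (log2 fold change -1.28 ± 0.390, adjusted p = 0.0439). up, the gene of troponin T, stood at 251, 777 and 352 CPM in Hop.CA and at 847, 728, 1179 and 1444 CPM in control. Hop.CA replicate 2 exceeded control replicate 2, and up did not pass (log2 fold change -1.19 ± 0.430, adjusted p = 0.0737). Mp20, a calponin-like muscle protein gene, fell without overlap between the groups (log2 fold change -1.34 ± 0.367, adjusted p = 0.0309). Tm2, wupA and Mp20 lost the call without Hop.CA replicate 1 or 3 or control replicate 1, 3 or 4 (adjusted p 0.0506 to 0.149), and without Hop.CA replicate 2 their log2 fold changes were -1.99, -1.85 and -1.84.

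Tm1 (3R, 15281371 to 15308779) lies next to Tm2 (3R, 15310193 to 15315197) and encodes both muscle and cytoskeletal tropomyosins, the second kind in many tissues. It stood at 1131, 1305 and 1194 CPM in Hop.CA replicates 1 to 3, against 1469, 1475 and 1541 CPM in control replicates 1 to 3 and 1643 CPM in control replicate 4. The groups did not overlap and differed little: Tm1 fell with a log2 fold change of -0.34 ± 0.0853 (adjusted p = 0.0197). The spread between libraries was 1.15 times in Hop.CA and 1.12 times in control, against 3.09 and 1.97 times for Tm2. tmod, which encodes the cap of thin filament pointed ends and also serves non-muscle cells, had means of 142 ± 9.02 CPM in Hop.CA and 177 ± 13.0 CPM in control (log2 fold change -0.32 ± 0.0861, adjusted p = 0.0267). Tm1 lost its call without Hop.CA replicate 1 (adjusted p = 0.0920) or 3 (0.0846), and tmod without either of these or control replicate 3 or 4 (0.0557 to 0.109).

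Troponin C, the calcium sensor, is encoded by 5 of the genes, of which 4 were tested and 3 called lower. The share called lower was 15.1% over all tested genes. TpnC73F had the highest level per exon length of these, at 90.7, 248 and 109 CPM in Hop.CA replicates 1 to 3 and 365, 261, 381 and 441 CPM in control replicates 1 to 4. The groups did not overlap, and the log2 fold change was -1.28 ± 0.376 (adjusted p = 0.0399). TpnC47D stood at 9.73, 59.5 and 18.8 CPM in Hop.CA and at 53.1, 17.5, 50.4 and 83.5 CPM in control. Its libraries differed by 6.12 times within Hop.CA and 4.77 times within control, more than for any other tested member, and it did not pass (log2 fold change -0.80 ± 0.702, adjusted p = 0.417). TpnC25D stood at 1.64, 5.44 and 1.92 CPM in Hop.CA and at 8.85, 5.13, 12.3 and 20.4 CPM in control (log2 fold change -1.96 ± 0.606, adjusted p = 0.0465). Hop.CA replicate 2 lay just above control replicate 2.

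TpnC41C and TpnC4 are troponin C genes of adult muscle. TpnC41C had 9 to 12 reads in Hop.CA and 17 to 22 in control, or 0.476, 0.640 and 0.556 CPM against 0.966, 1.06, 1.01 and 0.923 CPM. It passed narrowly (log2 fold change -0.82 ± 0.267, adjusted p = 0.0494) and lost the call without any 1 of the 7 libraries. TpnC4 had 7 to 12 reads in Hop.CA and 3 to 7 in control and was not tested. TpnC73F lost its call without Hop.CA replicate 1 or 3 or control replicate 1, 3 or 4 (adjusted p 0.0676 to 0.127), as did TpnC25D (0.0617 to 0.145). Without Hop.CA replicate 2 the log2 fold change was -1.85 for TpnC73F, -2.71 for TpnC25D and -1.83 for TpnC47D.

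Of the 5 genes for elastic and giant proteins, all were tested, 1 was called lower and 1 higher. These counts are near the shares of all tested genes, 15.1% called lower and 16.4% called higher. sls, the gene of the titin-like spring Sallimus, stood at 136, 233 and 146 CPM in Hop.CA replicates 1 to 3, against 309.9, 301 and 387 CPM in control replicates 1 to 3 and 443 CPM in control replicate 4. No library of one group reached the other, and sls fell with a log2 fold change of -1.07 ± 0.226 (adjusted p = 0.0115), a call kept without any 1 library. bt, which encodes projectin, another elastic protein, stood at 109, 342 and 178 CPM in Hop.CA and at 359, 295, 549 and 732 CPM in control. Hop.CA replicate 2 exceeded control replicate 2 (log2 fold change -1.21 ± 0.466, adjusted p = 0.0888). Unc-89, the gene of the M-line protein obscurin, had a log2 fold change of -1.07 ± 0.482 (adjusted p = 0.132). Without Hop.CA replicate 2 the values were -1.75 for bt (adjusted p = 0.0336) and -1.70 for Unc-89 (0.0344).

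Strn-Mlck and Msp300 were the 2 members with a log2 fold change above 0. Strn-Mlck, a gene for stretchin and a myosin light chain kinase, stood at 198, 204 and 191 CPM in Hop.CA replicates 1 to 3, against 124, 139, 157 and 159.8 CPM in control replicates 1 to 4. Every Hop.CA library exceeded every control library, and Strn-Mlck rose with a log2 fold change of 0.45 ± 0.0993 (adjusted p = 0.0126). Msp300, a giant nesprin that holds nuclei in place in muscle and other cells, stood at 878, 1078 and 956 CPM in Hop.CA and at 670.3, 718, 1046 and 1051 CPM in control. The groups overlapped widely (log2 fold change 0.16 ± 0.184, adjusted p = 0.547). Msp300 (2L, 5100877 to 5207002) and TpnC25D (2L, 5216701 to 5219053) lie close to each other, with log2 fold changes of 0.16 and -1.96. Strn-Mlck kept its call without any 1 library and lost it when control replicate 2 and Hop.CA replicate 1 were both left out.

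Of 6 genes for Z-disc and LIM proteins, all were tested and 3 were called lower, against 15.1% of all tested genes. Actn, the gene of alpha-actinin, which crosslinks thin filaments in muscle and actin bundles elsewhere, stood at 129, 246 and 157 CPM in Hop.CA replicates 1 to 3, against 286, 275, 420.4 and 532 CPM in control replicates 1 to 4. It fell without overlap of the groups (log2 fold change -1.09 ± 0.313, adjusted p = 0.0350). Zasp66, a PDZ and LIM family gene of the Z-disc, stood at 44.6, 112 and 49.5 CPM in Hop.CA and at 171, 169, 199 and 211 CPM in control. Its control libraries differed by 1.24 times only, and it fell with a log2 fold change of -1.45 ± 0.329 (adjusted p = 0.0161). Mlp84B, a muscle LIM protein gene, stood at 55.9, 158 and 69.8 CPM in Hop.CA and at 188, 176, 237 and 305 CPM in control (log2 fold change -1.26 ± 0.392, adjusted p = 0.0475).

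Mlp60A, the second muscle LIM protein gene, stood at 37.4, 134 and 54.9 CPM in Hop.CA replicates 1 to 3, against 218, 118, 213 and 319.9 CPM in control replicates 1 to 4. Its groups overlapped (log2 fold change -1.53 ± 0.508, adjusted p = 0.0583). Zasp52, a relative of Zasp66 with uses in muscle and epithelia, had a gap between the groups but did not pass (log2 fold change -1.09 ± 0.352, adjusted p = 0.0533). tn, which encodes the TRIM32-like protein thin, was at -1.18 ± 0.465 (adjusted p = 0.0949). Zasp66 lost its call without Hop.CA replicate 3 (0.0588), Actn without Hop.CA replicate 1 or 3 or control replicate 3 or 4 (0.0630 to 0.119), and Mlp84B without any library but Hop.CA replicate 2 (0.0579 to 0.149). Without Hop.CA replicate 2 the adjusted p was 0.0153 for Mlp60A, 0.0140 for Zasp52 and 0.0367 for tn, and without control replicate 2 it was 0.0450 for Mlp60A.

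Argk encodes arginine kinase, which stores energy as phosphoarginine. It stood at 356, 966 and 383 CPM in Hop.CA replicates 1 to 3, against 1501, 1134, 1553 and 1868 CPM in control replicates 1 to 4. The groups did not overlap, and Argk fell with a log2 fold change of -1.41 ± 0.388 (adjusted p = 0.0310). Mef2, the transcription factor gene that drives muscle differentiation, stood at 34.3, 38.8 and 38.6 CPM in Hop.CA and at 35.8, 44.1, 47.6 and 48.1 CPM in control. It varied little between libraries and did not pass (log2 fold change -0.24 ± 0.116, adjusted p = 0.152). Argk lost its call without Hop.CA replicate 1 or 3 or control replicate 1, 3 or 4 (adjusted p 0.0549 to 0.0998), and Mef2 gained one without control replicate 1 (0.0130).

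**Figure D3:**
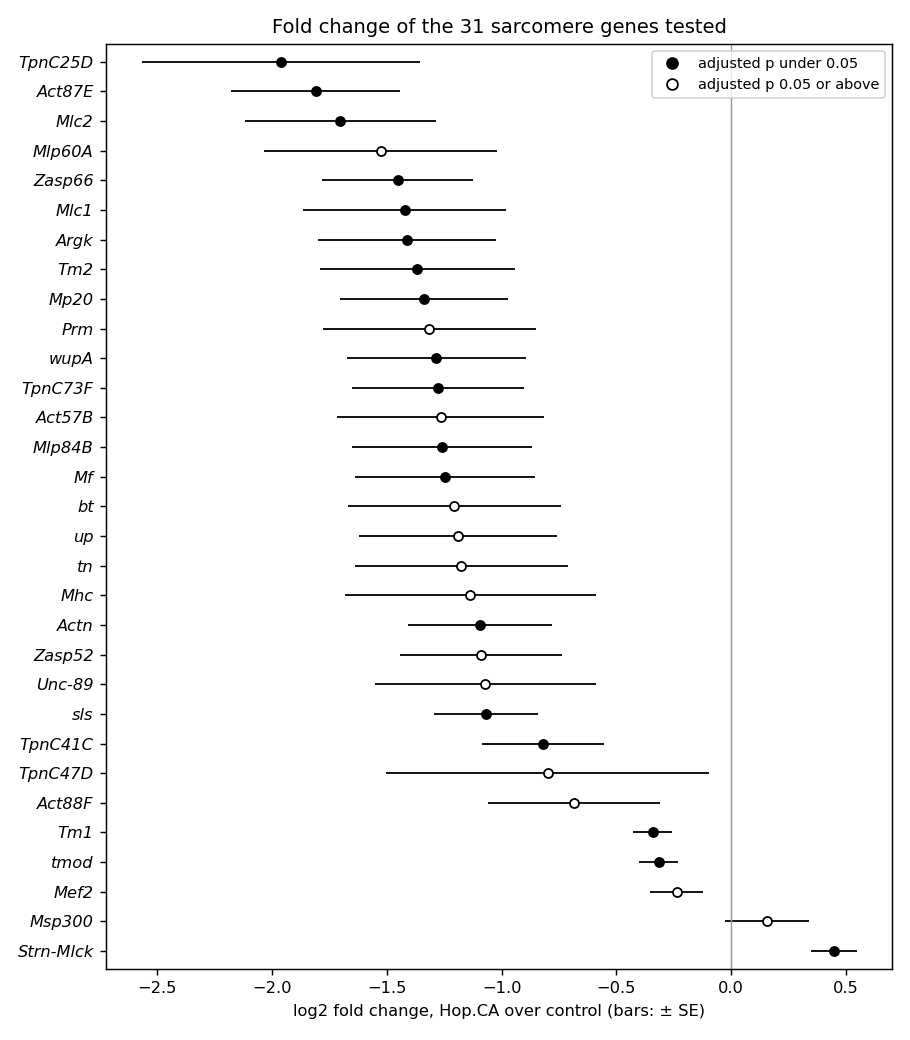
Log2 fold change of Hop.CA over control (horizontal axis) with its SE for the 31 tested sarcomere genes, ordered by value, filled where the adjusted p is under 0.05. Values run from -1.96 for TpnC25D to 0.45 for Strn-Mlck, and several genes with values below -1, such as Mhc at -1.14, are open because their SE is wide.

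Per length of exon, the order of the most abundant members was nearly the same in both groups. Act57B averaged 1043 RPKM in Hop.CA and 2507 RPKM in control, Mlc2 404.5 and 1318 RPKM, and Mlc1 234 and 628 RPKM. Mp20 followed with 209.9 RPKM in Hop.CA and 531 RPKM in control. Argk averaged 161 RPKM in Hop.CA and 430.2 RPKM in control, and up 179 and 409.9 RPKM, so the mean of Argk was above that of up in control and below it in Hop.CA. Mhc, whose exons are longer, averaged 109 RPKM in Hop.CA and 239.9 RPKM in control. The giant genes were low on this scale: sls averaged 2.40 RPKM in Hop.CA and 4.95 RPKM in control.

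Ratios between members within a library remove the total amount of muscle RNA from the comparison only where both genes are read from muscle alone. Argk is 1 of the 8 members set aside as also used outside muscle, so its ratio can still vary with the amount of muscle. The ratios were chosen after their values were seen and carry no test. Ratios over Mlc2 share that denominator, so their differences are not independent of each other. The ratio of Act57B to Mlc2 CPM was 1.81, 1.98 and 1.98 in Hop.CA replicates 1 to 3, against 1.38, 1.30, 1.46 and 1.53 in control replicates 1 to 4. Hop.CA replicate 2, which had a total close to that of control replicate 2, thus stood with the other Hop.CA libraries on this measure. The ratio of Mlc1 to Mlc2 was 0.327, 0.365 and 0.369 in Hop.CA and 0.293, 0.282, 0.295 and 0.305 in control, without overlap. Argk over Mlc2 was 0.647, 0.613 and 0.589 in Hop.CA and 0.4997, 0.560, 0.489 and 0.484 in control, without overlap. Mhc over Mlc2 was 0.840, 1.10 and 1.18 in Hop.CA and 0.425, 0.678, 0.795 and 0.916 in control, where Hop.CA replicate 1 fell inside the control range.

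Shares of the summed CPM were compared in the same way over the members other than the 8 left out of the sum above. That leaves 23 tested members, among which tmod, also used outside muscle, and Mef2 were kept. Mlc2 took 14.7%, 14.0% and 13.1% in Hop.CA replicates 1 to 3, against 20.5%, 18.4%, 17.6% and 16.8% in control replicates 1 to 4. Mlc1, Mlc2 and Act87E were the 3 members with a lower share in every Hop.CA library, and up was the 1 with a higher share in every Hop.CA library. For the rest of the 23 the groups overlapped. Shares of the same sum depend on each other, carry no test here and have no matching count over all tested genes. Act87E took 2.39%, 1.85% and 1.89% in Hop.CA and 2.50%, 3.18%, 2.89% and 2.60% in control. The shares of up were 6.71%, 6.90% and 7.07% in Hop.CA and 5.77%, 6.60%, 6.52% and 6.31% in control. Other pairs kept a nearly fixed ratio: TpnC73F over wupA was 0.614, 0.605 and 0.581 in Hop.CA and 0.636, 0.622, 0.594 and 0.558 in control, so the sensor and the inhibitor of the same complex varied together over all 7 libraries.

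**Figure D4:**
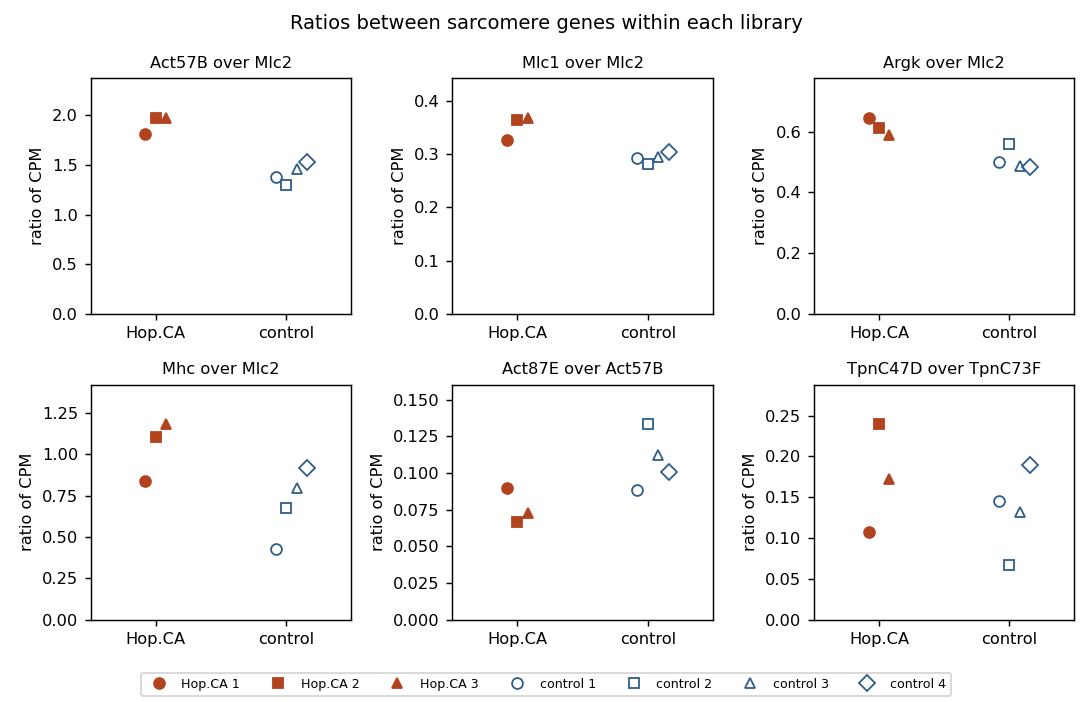
Ratio of CPM between pairs of sarcomere genes (vertical axes, from 0) in each Hop.CA library and each control library, 1 panel per pair and 1 marker shape per replicate number. Act57B over Mlc2 is 1.81 to 1.98 in Hop.CA and 1.30 to 1.53 in control, while TpnC47D over TpnC73F overlaps between the groups.

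Nearly all reads of the members were exonic and unique to 1 gene, with some exceptions. At least 90% of reads were unique in every library for 28 of 31 tested members. Mlp84B had at most 0.0546% unique reads and Mf 17.0% to 19.4%, and their levels are uncertain for that reason. Mlp84B overlaps Alh on the same strand, and Mf overlaps Gyc88E on the opposite one. sls had 57.0% to 76.7% unique reads and 13.2% to 26.2% intronic reads. The members are spread over the genome, with 11 on 2R, 9 on 3R, 7 on 3L, 3 on 2L, 3 on X and 1 on chromosome 4.

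Further genes were read from lists of genes with known roles in muscle. Their counts stand against the 15.1% of all tested genes called lower and the 16.4% called higher. The lists also hold genes with uses outside muscle, such as cher, cpa, mys and wb. Their medians are therefore not those of muscle RNA alone. Of 10 tested genes of myofibril assembly, 1 fell: sals, which lengthens thin filaments, stood at 6.88, 15.4 and 7.17 CPM in Hop.CA replicates 1 to 3 and 20.1, 31.7, 29.9 and 32.5 CPM in control replicates 1 to 4 (log2 fold change -1.54 ± 0.324, adjusted p = 0.0121). The median of that list was -0.16. Of 10 genes of calcium handling and excitation, with a median of -0.43, Calx, the sodium and calcium exchanger gene, fell (-0.996 ± 0.308, adjusted p = 0.0419). Itp-r83A, the inositol trisphosphate receptor gene, rose (0.34 ± 0.0943, adjusted p = 0.0277). Calx lost its call without Hop.CA replicate 1 or 3 or control replicate 1, 3 or 4 (0.0543 to 0.127), and Itp-r83A without any 1 Hop.CA library or control replicate 3 (0.0579 to 0.0868).

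The glutamate receptors of the larval neuromuscular junction are made by the muscle and had low counts. The list of 7 genes read for them also holds Neto and dlg1, which do not encode receptor subunits. dlg1 was not low, at 67.8 to 105 CPM. All 7 genes of that list were tested, with a median log2 fold change of -0.62. Only 1 of them fell, against 15.1% of all tested genes called lower. GluRIIE, a subunit that every such receptor needs, stood at 2.33, 3.09 and 2.58 CPM in Hop.CA replicates 1 to 3, against 4.24, 5.42, 4.88 and 5.98 CPM in control replicates 1 to 4 (log2 fold change -0.94 ± 0.196, adjusted p = 0.00997). Of 16 genes of muscle attachment, 5 were called lower and 2 higher, with a median of -0.20, against 15.1% and 16.4% of all tested genes, and 4 of these calls (wb, Tsp, kon and wech) held without any 1 library. wb, which encodes a laminin alpha chain, stood at 114, 96.2 and 107 CPM in Hop.CA and at 15.5, 13.1, 16.6 and 19.3 CPM in control, and rose with a log2 fold change of 2.71 ± 0.132 (adjusted p = 3.45e-05). Tsp, a thrombospondin of tendon attachment, fell (-1.15 ± 0.193, adjusted p = 0.00447), and so did kon, a transmembrane protein gene of muscle attachment (-1.12 ± 0.249, adjusted p = 0.0126).

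Markers of other tissues that a dissection can carry were read beside the sarcomere genes. Of 9 imaginal disc markers, 5 were called lower, against 15.1% of all tested genes, with a median of -1.53. nub, rn and vg, which act in wing disc patterning, fell with log2 fold changes of -1.64 ± 0.432, -1.60 ± 0.397 and -1.54 ± 0.433 (adjusted p 0.0260, 0.0215 and 0.0314). rn lost its call without Hop.CA replicate 2 or 3 and nub and vg also without control replicate 3 (0.0539 to 0.103). ara, also called lower (-1.27 ± 0.235, adjusted p 0.00654), kept its call without any 1 library (0.00695 to 0.0317). ap, the remaining called disc marker, lost its call without Hop.CA replicate 2 or 3 or control replicate 1, 3 or 4 (0.0505 to 0.0997). All 9 disc markers summed to 41.3, 22.2 and 34.6 CPM in Hop.CA replicates 1 to 3 and 62.7, 57.5, 79.1 and 144 CPM in control replicates 1 to 4. Hop.CA replicate 2, the Hop.CA library with the most muscle RNA, thus had the least disc RNA, while control replicate 4 had the most of both. Fat body markers summed to 2289, 4450.2 and 2446 CPM in Hop.CA and 6500.2, 1800.2, 4746 and 2030.3 CPM in control, and hemocyte markers to 485, 644 and 377 CPM in Hop.CA and 427, 513, 508 and 481 CPM in control. edgeR called none of the 7 fat body, 6 hemocyte and 6 tested neuron markers, of which 0 had an unadjusted p under 0.05 and 0 were called by DESeq2 or limma-voom. The most expressed were Lsp1gamma and Lsp1beta, storage protein genes of the fat body (log2 fold change -0.30 ± 0.522 and -0.03 ± 0.516), Hml and Pxn of hemocytes (0.25 ± 0.185 and -0.08 ± 0.189), and elav and Syt1 of neurons (-0.28 ± 0.132 and -0.19 ± 0.360). The part of these tissues in the sarcomere gene differences was not tested.

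Prothoracic gland and salivary gland markers were low. Prothoracic gland markers summed to 28.8 to 42.7 CPM in Hop.CA and 31.1 to 96.0 CPM in control, with control replicate 2 the highest. phm, a gene of ecdysone synthesis, stood at 0.159, 0.160 and 0.101 CPM in Hop.CA replicates 1 to 3 and 0.483, 24.1, 2.02 and 1.90 CPM in control replicates 1 to 4. It was the 1 of 5 called (adjusted p = 0.0465), against 15.1% of all tested genes called lower. It rested on control replicate 2 for most of its reads, and lost the call without any 1 Hop.CA library (0.125 to 0.139). Without control replicate 2, 3 or 4 there was no test of phm. Salivary gland markers summed to 0.0505 to 3.60 CPM in Hop.CA and 0.0595 to 1.44 CPM in control, and none of the 5 was tested. No listed marker was at 0 in all 7 libraries.

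**Figure D5:**
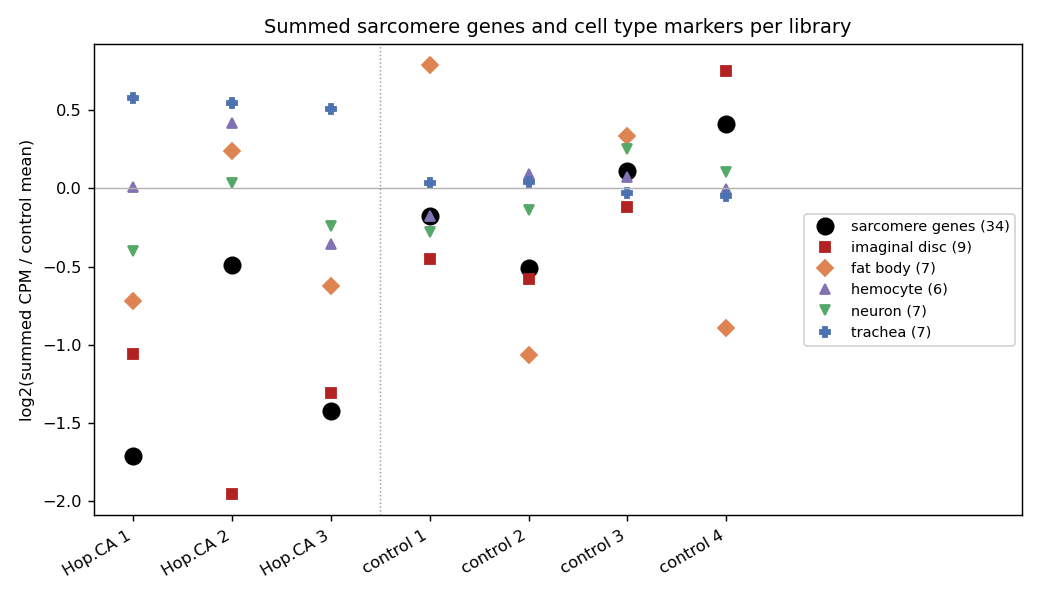
Summed CPM of the 34 sarcomere genes and of 5 lists of cell type markers in each library, as log2 of the ratio to the mean of the control libraries (vertical axis), Hop.CA libraries left of control libraries. Sarcomere genes and disc markers lie below 0 in all Hop.CA libraries, but Hop.CA replicate 2 is the highest of them for sarcomere genes (15445 CPM) and the lowest for disc markers (22.2 CPM). The trachea sum is mostly verm and serp.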

How the data were processed

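Tracheal RNA of 7 libraries was made into stranded mRNA libraries, per the labels' protocols. The deposited tables give raw counts of reads for each gene, in all and split into unique, exonic, exon-exon and intronic, beside exon lengths, per the file headers. Per the submitters' processing notes, cutadapt 1.8.1 trimmed the reads and coordinates are those of dm6. Neither aligner nor counting program, nor its use of strand, is named: not given in the sources used here. The deposited counts carry no normalization. 1 unnamed row without reads was left out.

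The members and lists were chosen with earlier results of these data known. The counts of total gene reads went into edgeR 4.0.16 under R 4.3.3: filterByExpr (minimum count 10, minimum total 15), TMM, and robust quasi-likelihood with the group as its only term. The biological coefficient of variation was 0.199. The procedure was also run on simulated counts in which each gene varied independently. That run does not cover shifts of many genes together in 1 library. SE was derived from the fold change and the F statistic, as log2 fold change divided by the root of F. Groups came from the titles. No 2 libraries agreed within sampling noise (lowest chi-square per degree of freedom 20.6). Up to 4 most expressed members of each role class are given per library, as are called higher ones. From each other list up to 3 called genes of largest change are named. The alternatives are given at the end. DESeq2 1.42.0, limma 3.58.1 and matplotlib 3.10.9 were also used. CPM precision is set by reads per gene, and few reads lie behind Act88F, Act79B, fln, TpnC4 and TpnC41C.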

Additional observations from a re-analysis of the deposited data

How the results depend on the processing

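Every tested member kept the direction of its log2 fold change in all 18 alternatives in which it was measured, while calls moved: none of the 18 called members kept its call in all of them. The count called lower, 17 of 31, was 6 of 34 with no filter on low counts (9.47% of all tested genes), 3 without control replicate 2 and Hop.CA replicate 1 together (7.68%), and 2 to 25 when 1 library was left out (7.66% to 17.7%). The 1 member called higher became 0 without those 2 libraries together, with 1 gene at an unadjusted p under 0.05. At an adjusted p under 0.01 edgeR called 0 lower and 0 higher, below the 13.9% of all tested genes that edgeR called in either direction. In edgeR 25 members had an unadjusted p under 0.05. Shares of all tested genes at an unadjusted p under 0.05 are not given for any fit, so such counts have no baseline here. At an adjusted p under 0.01 DESeq2 called 16 members in either direction and limma-voom 3. Their shares of all tested genes at that threshold are not given. With the replicate number as a block edgeR called 0 lower and 0 higher, with 13 and 1 at an unadjusted p under 0.05, and 4.66% of all tested genes lower. Same-numbered libraries did not deviate together (correlations of deviations -0.2235, -0.4317 and -0.0694), so the numbers are not taken to pair them. The median log2 fold change was -1.82 to -0.92 when 1 library was left out. DESeq2 called 24 members in either direction, where it called 18.1% of all tested genes lower and 17.3% higher. limma-voom called 21 members, where it called 14.5% of all tested genes lower and 16.6% higher. The summed level kept a ratio of 0.340 to 0.543 in all alternatives run. The cause of these shifts was not tested. Members with under 25 reads per library (Act88F, Act79B, fln, TpnC4, TpnC41C) are limited by depth.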

Other observations

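Of 18 genes of muscle specification, fusion and splicing, 15 were tested, 3 fell and none rose, with a median log2 fold change of -0.37. Of all tested genes, 15.1% were called lower and 16.4% higher. mbl, an RNA-binding protein gene of muscle splicing, stood at 67.1, 77.8 and 66.4 CPM in Hop.CA replicates 1 to 3, against 158, 185, 187 and 191 CPM in control replicates 1 to 4 (log2 fold change -1.36 ± 0.0996, adjusted p = 2.40e-04 by edgeR). The groups did not overlap. blow, which acts in myoblast fusion, fell with a log2 fold change of -0.66 ± 0.119 (adjusted p = 0.00582), and sns, a myoblast adhesion gene, with -1.13 ± 0.368 (adjusted p = 0.0496). sns lost its call without Hop.CA replicate 1 or 3 or control replicate 1, 3 or 4 (adjusted p 0.0755 to 0.162).

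Genes of non-muscle actomyosin were read too. Act5C, the main cytoplasmic actin gene, stood at 7748, 6240.2 and 6634 CPM in Hop.CA replicates 1 to 3, against 6811, 8015, 6177 and 5991 CPM in control replicates 1 to 4. Of 8 genes of that list 2 rose and 1 fell, with a median of 0.12, beside the same shares of all tested genes. sqh, the regulatory light chain gene of non-muscle myosin, rose with a log2 fold change of 0.67 ± 0.113 (adjusted p = 0.00466). Cam, the gene of the calcium sensor calmodulin, rose with 0.57 ± 0.0830 (adjusted p = 0.00271). tsr, the cofilin gene, fell with -0.31 ± 0.0909 (adjusted p = 0.0333), and lost the call without any 1 Hop.CA library or control replicate 2 (0.0539 to 0.116).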
